A study of Homo sapiens with 18 samples.

Results

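The genes described here are the numbered zinc finger genes of human chromosome 19, taken as protein-coding genes whose symbol is ZNF followed by a number and whose deposited chromosome is 19. The rule found 208 of the 31004 genes in the count table. They were measured by RNA-seq in HCT116, a human colorectal carcinoma cell line, in 18 libraries, 3 biological replicates in each of 6 groups. The cells carried an empty control (Ctrl), overexpression of the long noncoding RNA CRLM1, or overexpression of its antisense as a second control (Antisense). On each of these backgrounds they received either a negative control (NC) or a construct for HNRNPK overexpression (hnRNPK), so that every group was an engineered derivative of the same line. The promoters driving the constructs and the number of clones behind each stable background are not given in the sources used here.

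The total count was 19732681 to 27039520 per library. CPM values here are counts scaled to the library total after that total was adjusted by a TMM normalisation factor for each library. They therefore differ from counts divided by the plain totals. LINC01767 (listed as RP4-710M16.2), the gene of CRLM1, was at 0 CPM in every Ctrl library. It was at 579.9 to 658.5 CPM in the CRLM1 libraries and at 39.08 to 50.01 CPM in the Antisense libraries. HNRNPK was at 424.1 to 479.7 CPM in the NC libraries and 491.0 to 713.1 CPM in the hnRNPK libraries, without overlap. The epithelial markers EPCAM, CDH1, KRT8 and KRT18 were expressed in every library, whereas the leukocyte gene PTPRC, the endothelial gene PECAM1 and the liver gene ALB were at most 0.148 CPM in any library. The fibroblast gene COL1A1 was at 11.2 to 32.8 CPM, and its part in the results was not tested. Replicate 3 of Ctrl_hnRNPK and replicate 3 of CRLM1_hnRNPK stood apart from the other libraries of their groups, and results that rest on them are given with and without them.

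Zinc finger proteins of this kind bind DNA through a row of fingers, each a short fold held by a zinc ion and joined to the next by a conserved linker. Many of those encoded on chromosome 19 also carry a KRAB domain, which recruits the corepressor TRIM28 and the histone methyltransferase SETDB1 and thereby silences chromatin, above all at transposable elements. The genes lie in tandem clusters that arose by duplication, and they are usually expressed at low levels.

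Base composition separated the family. The exonic GC content of the 208 members had a median of 43.6% and a range of 33.9 to 70.9%, against medians of 45.8% for 235 numbered ZNF genes on other chromosomes and 59.6% for the other protein-coding genes of chromosome 19. At a limit of 50%, 177 members were GC-poor and 31 were GC-rich. A pattern for the start of the KRAB domain was found in 154 of 175 GC-poor members with a coding sequence and in 8 of 31 GC-rich members. A missing match does not show a missing domain, since ZNF136, a KRAB protein, did not match. The GC-poor members had a median of 13 fingers, the GC-rich members 8, and ZNF91 had the most, 33. The last position of the codons, which can often vary while the protein is kept, held a median of 37.4% G or C in the GC-poor and 77.4% in the GC-rich members.

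The difference is visible within a single finger. The coding sequence of 1 finger and its linker is shown for the 3 members with the highest fold changes by the naming rule and for 2 of the lowest in the comparison of Antisense_hnRNPK with Antisense_NC. Each is 78 bases of GRCh38, written 5′ to 3′ on the coding strand, and the capitals mark the 15 bases of the linker.
ZNF85: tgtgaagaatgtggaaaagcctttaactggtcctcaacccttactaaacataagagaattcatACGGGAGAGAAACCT
ZNF225: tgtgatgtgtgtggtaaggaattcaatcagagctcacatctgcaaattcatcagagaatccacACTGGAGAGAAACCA
ZNF780A: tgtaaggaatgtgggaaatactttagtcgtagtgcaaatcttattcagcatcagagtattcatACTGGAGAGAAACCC
ZNF574: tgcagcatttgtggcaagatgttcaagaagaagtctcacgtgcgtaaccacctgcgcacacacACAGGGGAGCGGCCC
ZNF358: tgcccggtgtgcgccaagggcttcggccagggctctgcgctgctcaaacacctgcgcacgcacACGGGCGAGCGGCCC
These lie at chr19:20949124-20949201 (plus strand), chr19:44131230-44131307 (plus), chr19:40075866-40075943 (minus), chr19:42080095-42080172 (plus) and chr19:7520035-7520112 (plus), in coding exons. The finger of ZNF85 had a GC content of 39.7%, that of ZNF225 42.3% and that of ZNF780A 38.5%, against 56.4% in ZNF574 and 73.1% in ZNF358. ZNF85 and ZNF780A shared 56 of 78 bases (71.8%), the most of any pair, and ZNF85 and ZNF574 shared 37 (47.4%), among the fewest. ZNF85 and ZNF225 shared 51 (65.4%), as did ZNF574 and ZNF358. ZNF225 shared 45 (57.7%) with each of ZNF574 and ZNF358. Each unit is the first match in its gene, so that the fingers need not be counterparts. Over the family, the linkers had a median GC content of 52.2% in 173 GC-poor members and 74.2% in 20 GC-rich members that hold such a unit.

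Expression of the family was low. Of the 203 members in the FPKM table (fragments scaled to exon length and library size), 45 had a mean of at least 1 FPKM over all libraries, and the median of the group means was 0.107 FPKM in Ctrl_NC, 0.143 in CRLM1_NC and 0.243 in Antisense_NC. With the hnRNPK construct it was 0.160 FPKM on the Ctrl, 0.173 on the CRLM1 and 0.567 on the Antisense background. Members accounted for 0.0792% ± 0.000862 (SD, n = 3) of the Ctrl_NC reads, for 0.0841% ± 0.000476 of those of CRLM1_NC and for 0.103% ± 0.00128 of those of Antisense_NC. The share was 0.154% ± 0.0149 in Antisense_hnRNPK, the highest of the 6 groups. Less RNA per cell and fewer expressing cells cannot be told apart in such bulk libraries.

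The libraries also differed in how the counts of all genes depended on GC content. Over 15303 genes that are not members, the slope of the log2 ratio to the Ctrl_NC mean was -0.153 to -0.216 per 10 GC points in the Antisense_NC libraries and -0.638 to -0.701 in the Antisense_hnRNPK libraries. In Ctrl_hnRNPK it was -0.458 and -0.457 in replicates 1 and 2 but 0.0461 in replicate 3. In CRLM1_hnRNPK it was -0.503 and -0.467 in replicates 1 and 2 and 0.126 in replicate 3. Between the replicates of Ctrl_hnRNPK and of CRLM1_hnRNPK the GC-poor members moved with this slope. Their median log2 ratio was 0.423 and 0.418 in Ctrl_hnRNPK replicates 1 and 2 and 0.0029 in replicate 3, and 0.474, 0.389 and -0.127 in the CRLM1_hnRNPK libraries. In Antisense_hnRNPK their median was 1.15, 1.33 and 1.25 in replicates 1 to 3. The slopes there were -0.638, -0.643 and -0.701, so that the steepest library was not the highest. The median of the GC-rich members was -0.607 and -0.551 in Ctrl_hnRNPK replicates 1 and 2 and 0.246 in replicate 3. What sets the GC slope was not tested. The comparisons are given beside the trend of all other genes at the same GC content and after a GC and length trend was removed from each library.

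**Figure D1:**
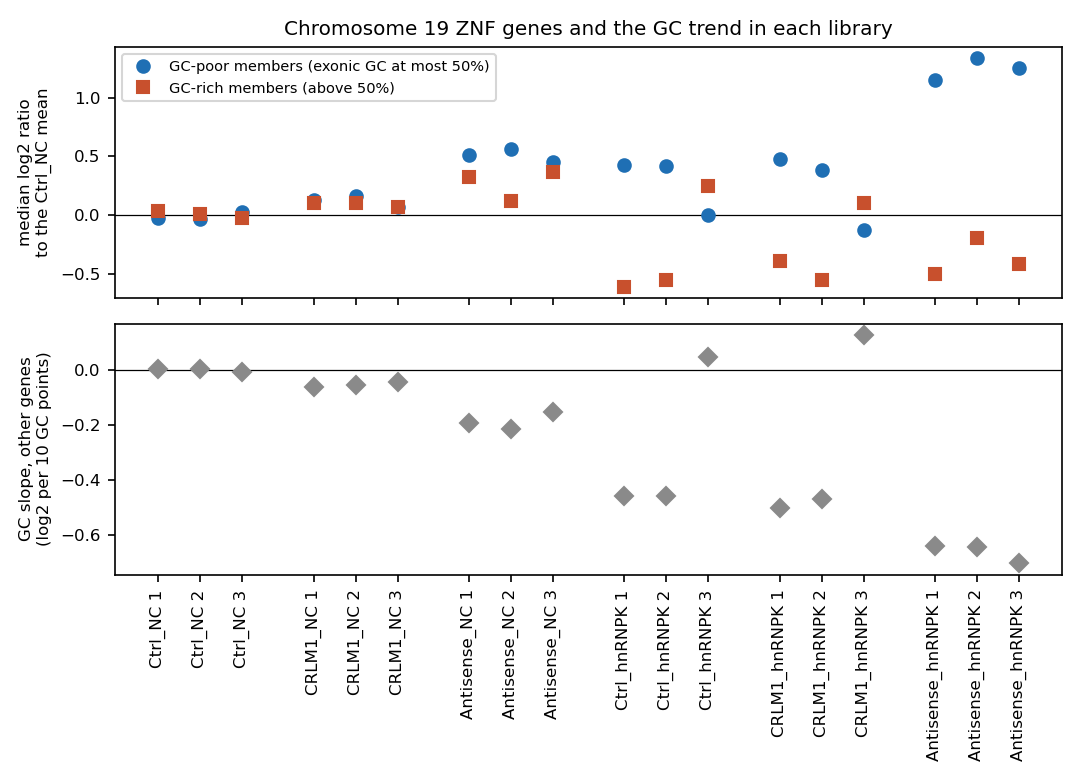
Median log2 ratio to the Ctrl_NC mean of 124 GC-poor (blue circles) and 29 GC-rich (orange squares) chromosome 19 ZNF genes in each of the 18 libraries (top), and the slope of that ratio on exonic GC content over 15303 other genes, in log2 units per 10 GC points (bottom). Replicate 3 of Ctrl_hnRNPK and of CRLM1_hnRNPK lies away from replicates 1 and 2 of its group in both panels.

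CRLM1 overexpression alone changed few members. Of 126 members tested in CRLM1_NC against Ctrl_NC, 3 were called higher (ZNF440, ZNF543 and ZNF14) and 0 lower, where a call needs a Benjamini-Hochberg adjusted p of at most 0.05 in the edgeR quasi-likelihood test and a change of at least 2-fold. Of all genes tested, 0.775% were called higher and 0.809% lower. At an unadjusted p under 0.05, 34 members differed in either direction, against 42.6% of all genes. DESeq2 called 2 members higher and 0 lower, against 0.487% and 0.57% of the genes to which it gave an adjusted p. ZNF440, a KRAB zinc finger gene of the cluster at 11.48 to 12.64 Mb, was at 0.716, 0.760 and 0.892 CPM in Ctrl_NC and at 2.25, 2.36 and 1.73 CPM in CRLM1_NC. Its log2 fold change was 1.40 ± 0.33 (SE of the fold change, adjusted p = 7.9e-04, edgeR). Members described for their fold change, here and below, were chosen among called members without overlap between the libraries compared. Their lack of overlap in that comparison therefore adds no support. ZNF543 was at 0.937, 1.08 and 0.490 CPM in Ctrl_NC and at 1.93, 2.77 and 1.94 CPM in CRLM1_NC, a log2 fold change of 1.38 ± 0.34 (adjusted p = 0.0012, edgeR). With the GC and length trend removed, 3 members were called higher and 2 lower (ZNF559 and ZNF738), against 0.844% and 0.671% of all genes. The median log2 fold change of the members was 0.16, against 0.05 in the trend of the other genes at the same GC content. Both named genes were also called higher in Antisense_NC against Ctrl_NC, a comparison that shares the Ctrl_NC libraries, with log2 fold changes of 1.86 and 1.64.

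Against the antisense control, the members called in the CRLM1 background were lower. Of 132 members tested in CRLM1_NC against Antisense_NC, 0 were called higher and 23 lower, against 4.01% and 3.17% of all genes. DESeq2 called 0 higher and 20 lower, against 3.69% and 2.95%. In all, 26 members had a log2 fold change above 0 and 106 one below 0, the median was -0.45, and the trend of the other genes at the same GC content gave -0.08. After the GC and length trend was removed, 0 were called higher and 17 lower, against 3.82% and 2.67% of all genes. The called members included 20 of 104 GC-poor and 3 of 28 GC-rich members tested. Of the 23, 3 had a mean CPM under the level of the filter on low counts in CRLM1_NC but not in Antisense_NC.

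Among these, ZNF136, a KRAB zinc finger gene of the same cluster as ZNF440, was at 0.359, 0.635 and 0.612 CPM in CRLM1_NC and at 1.55, 2.41 and 1.84 CPM in Antisense_NC. The log2 fold change was -1.81 ± 0.36 (adjusted p = 4.6e-05, edgeR). ZNF136 had 8 counts in CRLM1_NC replicate 1, under the filter's level, and so passed only with the Antisense_NC libraries. ZNF45 fell by 1.77 on the log2 scale (adjusted p = 2.9e-06, edgeR) and ZNF28 by 1.46 (adjusted p = 2.5e-04, edgeR). In CRLM1_NC against Ctrl_NC these 3 genes were not called, with log2 fold changes of -0.20, 0.40 and 0.71 and edgeR adjusted p of 0.79, 0.53 and 0.24. The ZNF28 libraries of those groups did not overlap, at 0.674, 0.862 and 0.816 CPM in CRLM1_NC.

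More members were called between the cells overexpressing the antisense and the empty control. Of 134 members tested in Antisense_NC against Ctrl_NC, which share libraries with the comparisons above, 45 were called higher and 4 lower, against 7.19% and 6.94% of all genes. DESeq2 called 43 higher and 4 lower, against 6.92% and 6.65%. The members had a median log2 fold change of 0.58, and the trend of the other genes at the same GC content gave 0.13. Once the GC and length trend was removed, 35 were called higher and 3 lower, against 6.05% and 6.31% of all genes. The filter matters to the count. It needs 0.424 CPM on plain totals in as many libraries as 1 group holds. Of the 45, 9 had a mean CPM under that level in Ctrl_NC but not in Antisense_NC. More passed only with the Antisense_NC libraries, since a mean above the level can hold a library under it. Without the filter, 51 were called higher and 4 lower, against 4.65% and 4.54% of all genes.

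The highest of these by the naming rule were ZNF552, ZNF28 and ZNF45, KRAB zinc finger genes in 3 different clusters. ZNF552 (chr19:57803841-57814913, minus strand) was at 0.496, 0.280 and 0.223 CPM in Ctrl_NC and at 2.11, 1.52 and 1.95 CPM in Antisense_NC. Its log2 fold change was 2.46 ± 0.39 (adjusted p = 1.1e-06, edgeR), and 2.46 after the GC and length trend was removed. ZNF552 is among the 9 with a mean under the filter's level in Ctrl_NC. It passed the filter only through Antisense_NC, where it was high. ZNF28 (chr19:52797408-52857600, minus strand) was at 0.441, 0.440 and 0.535 CPM in Ctrl_NC and at 2.20, 3.00 and 1.43 CPM in Antisense_NC. Its log2 fold change was 2.17 ± 0.36 (adjusted p = 2.0e-06, edgeR), and the Antisense_NC replicates spread widely. ZNF28 had 8, 11 and 12 counts in Ctrl_NC. Not all of these reached the filter's level, so that it too passed only with the Antisense_NC libraries.

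ZNF45 (chr19:43912624-43935282, minus strand) was at 0.386, 0.560 and 0.847 CPM in Ctrl_NC and at 2.63, 2.79 and 3.17 CPM in Antisense_NC. The Antisense_NC replicates lay closer together for their level than those of Ctrl_NC. The log2 fold change was 2.17 ± 0.31 (adjusted p = 1.1e-07, edgeR). ZNF45 had 7 counts in Ctrl_NC replicate 1, under the filter's level, and so also passed only with the Antisense_NC libraries. Its promoter window of 300 bases around the annotated start is shown because ZNF45 was the only one of these 3 genes with an entry among the promoter windows used. The sequence is that of RefSeq on GRCh38.p14, chr19:43935233-43935532, minus strand, with CG dinucleotides in capitals.
ZNF45: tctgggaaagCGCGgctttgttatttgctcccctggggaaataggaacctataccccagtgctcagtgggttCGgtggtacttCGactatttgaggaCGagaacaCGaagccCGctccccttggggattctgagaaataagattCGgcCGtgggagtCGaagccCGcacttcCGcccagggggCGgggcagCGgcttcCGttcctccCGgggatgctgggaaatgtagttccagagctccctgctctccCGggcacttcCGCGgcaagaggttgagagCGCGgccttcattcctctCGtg
It holds 22 CG dinucleotides at a GC content of 60.0%. The motif CG, read alike on both strands, occurred a median of 21 times in the windows of the 180 members with an entry and 14 times in all 27305 windows of the table. The 39 members called higher that had an entry had a median of 21.0, and 80 of the 89 tested members not called higher had one of 21.5, so that this count did not separate them. The median GC content of the members' windows was 60.8%, against 58.3% over all windows of the table.

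The 4 members called lower in Antisense_NC were ZNF738, ZNF428, ZNF358 and ZNF83. ZNF428 was at 37.0, 38.4 and 37.8 CPM in Ctrl_NC and at 16.7, 16.3 and 19.7 CPM in Antisense_NC, a log2 fold change of -1.16 ± 0.08 (adjusted p = 4.4e-15, edgeR). ZNF358 was at 29.1, 26.7 and 27.2 CPM in Ctrl_NC and at 12.9, 13.8 and 14.9 CPM in Antisense_NC, a log2 fold change of -1.05 ± 0.09 (adjusted p = 9.2e-13, edgeR). Both genes are GC-rich, and their log2 fold changes were -0.88 and -0.65, under 2-fold, once the GC and length trend was removed. ZNF738 is GC-poor, at 37.1%, and fell by 1.20 on the log2 scale (adjusted p = 1.5e-04, edgeR) and by 1.61 with the trend removed. Exonic bases shared with other genes made up 32.1% of ZNF428, 34.1% of ZNF358 and 18.3% of ZNF738, so that their reads may include those of neighbours, since the strand setting of the counting is not given in the sources used here.

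Called members were found among both base compositions. Of the GC-poor members, 39 of 106 were called higher and 2 lower, and of the GC-rich members, 6 of 28 were called higher and 2 lower. Among the GC-rich members, those matching the KRAB pattern had a median log2 fold change of 1.00 with 4 of 8 called higher and 0 lower, and those not matching had a median of -0.18 with 2 of 20 called higher and 2 lower. By GC content, the median was 0.95 for 7 members at 50 to 58% and 0.16 for 21 members at 58 to 76%. Other genes in these ranges had medians of -0.13 and -0.25. Neither difference was tested, and the KRAB pattern was not separated from GC content. The ZNF genes on other chromosomes gave 43 of 199 called higher and 4 lower with a median of 0.52, and the other protein-coding genes of chromosome 19 gave 34 of 801 higher and 60 lower with a median of -0.17. The trend at the GC content of these sets gave 0.02 and -0.19, and no difference between the sets was tested.

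**Figure D2:**
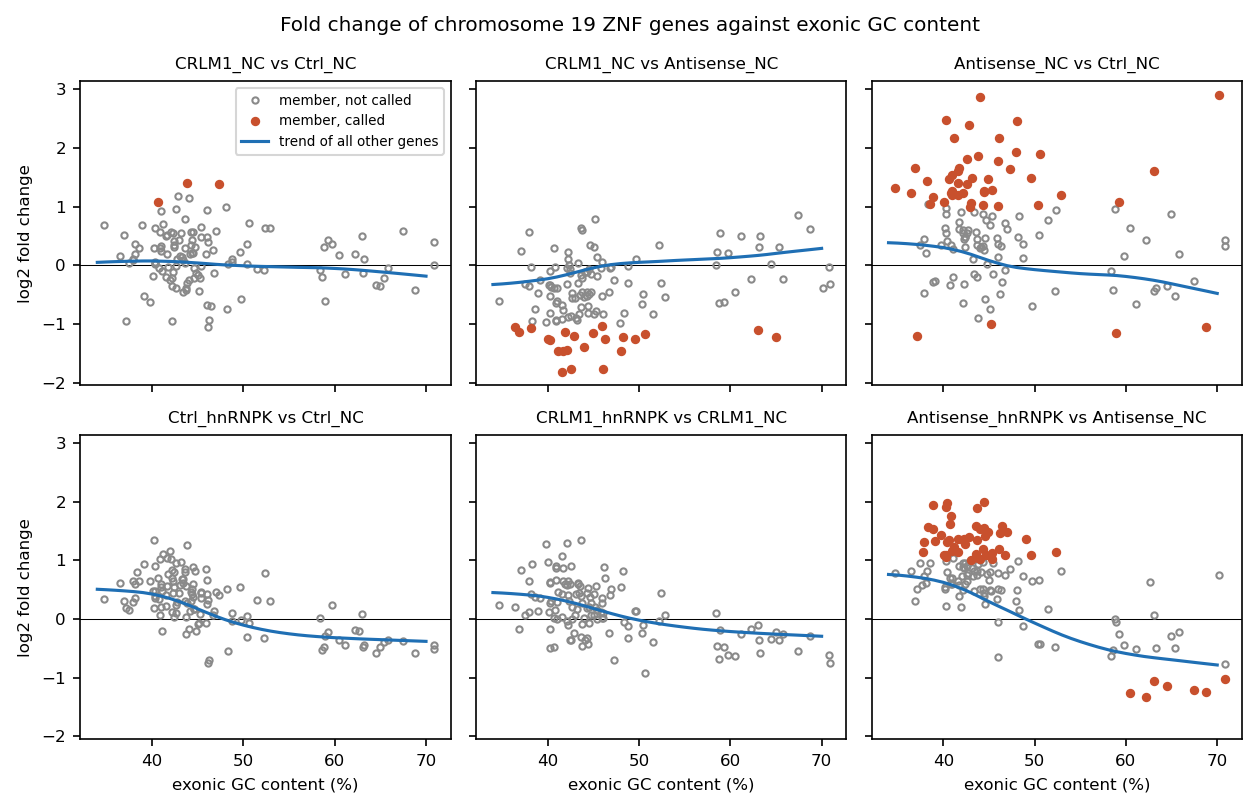
Log2 fold change (y axis) of the members tested in each of the 6 comparisons against their exonic GC content in percent (x axis). Filled orange points passed the edgeR test at 2-fold, open grey points did not, and the blue line is the lowess trend of all other genes. In Antisense_NC against Ctrl_NC the line stays under the 2-fold limit, so the 45 members called higher lie above it by definition. In Antisense_hnRNPK against Antisense_NC the members follow the slope of the line, with the GC-poor members mostly above it.

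The effect of the hnRNPK construct depended on whether replicate 3 was kept. With all libraries, 0 of 128 members were called in Ctrl_hnRNPK against Ctrl_NC and 0 of 127 in CRLM1_hnRNPK against CRLM1_NC by edgeR, and 0% of all genes were called in either. DESeq2 also called 0 members in each, against 0.00685% of all genes higher and 0% lower on the Ctrl background and 0.0278% and 0.0208% on the CRLM1 background. At an unadjusted p under 0.05, 21 and 14 members differed, against 15.4% and 9.25% of all genes. The smallest adjusted p of a member was 0.320 and 0.533. The median log2 fold change of the GC-poor members was 0.44 on the Ctrl and 0.27 on the CRLM1 background, and that of the GC-rich members was -0.34 on each. The trend of the other genes gave 0.30 and 0.27 at the GC contents of the GC-poor members, and -0.32 and -0.22 at those of the GC-rich members. On the CRLM1 background 58 members lay above the trend and 69 below it. In both comparisons 0 members were called with all libraries after the GC and length trend was removed.

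Without replicate 3 of Ctrl_hnRNPK, 15 of 135 members were called higher and 5 lower, against 5.17% and 1.71% of all genes. The 15 were GC-poor and the 5 GC-rich. With the GC and length trend removed as well, 2 were called higher and 0 lower, against 1.29% and 0.467%. ZNF585A, with 21 fingers, was at 0.992, 0.760 and 0.669 CPM in Ctrl_NC and at 2.42, 2.18 and 0.806 CPM in Ctrl_hnRNPK. Replicate 3 lay within the control range, and without it the log2 fold change was 1.54 ± 0.33 (adjusted p = 5.6e-04, edgeR). ZNF574, a GC-rich member, was at 30.7, 27.9 and 26.4 CPM in Ctrl_NC and at 10.7, 12.6 and 44.5 CPM in Ctrl_hnRNPK. It was thus lower than every control in replicates 1 and 2 and higher in replicate 3, with a log2 fold change of -1.26 ± 0.12 without replicate 3 (adjusted p = 9.2e-08, edgeR). The others named by the rule without replicate 3 were ZNF440 (1.47) and ZNF780B (1.46), which were higher, and ZNF628 (-1.38) and ZNF784 (-1.18), which were lower, as log2 fold changes.

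Without replicate 3 of CRLM1_hnRNPK, 13 of 130 members were called higher and 3 lower, against 3.07% and 2.23% of all genes. All 13 were GC-poor and all 3 GC-rich. With the GC and length trend removed as well, 3 were called higher and 1 lower, against 0.715% and 0.626%. ZNF525 was at 0.944, 1.18 and 1.07 CPM in CRLM1_NC and at 3.11, 3.34 and 1.07 CPM in CRLM1_hnRNPK, where replicate 3 lay within the range of the controls. Its log2 fold change without replicate 3 was 1.64 ± 0.29 (adjusted p = 1.8e-05, edgeR). ZNF548 was at 2.56, 1.63 and 1.07 CPM in CRLM1_NC and at 4.99, 4.47 and 3.66 CPM in CRLM1_hnRNPK, so that here replicate 3 also lay above the controls, and the log2 fold change was 1.46 ± 0.27 without it (adjusted p = 3.6e-05, edgeR) and 1.35 with it (adjusted p = 0.53). ZNF559 rose by 1.60 and ZNF865 and ZNF628 fell by 1.14 and 1.05 on the log2 scale without replicate 3.

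On the Antisense background, where the 3 hnRNPK libraries had similar GC slopes, the family separated by base composition. Of 151 members tested in Antisense_hnRNPK against Antisense_NC, 49 were called higher and 7 lower, against 7.28% and 6.1% of all genes. DESeq2 called 44 higher and 7 lower, against 6.28% and 6.48%. The calls were 48 higher and 0 lower among 122 GC-poor members, with a median log2 fold change of 0.91, and 1 higher and 7 lower among 29 GC-rich members, with a median of -0.44. The trend of all other genes gave 0.47 and -0.62 at the same GC contents. With the GC and length trend removed, 17 were called higher and 0 lower, against 2.9% and 1.54% of all genes, and the median over all members was 0.43. Of the 49 members called higher, 10 had a mean CPM under the filter's level of 0.430 in Antisense_NC but not in Antisense_hnRNPK. A member with a higher mean can also have passed only with the hnRNPK libraries.

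ZNF85, whose finger sequence is printed above, was at 0.431, 0.211 and 0.614 CPM in Antisense_NC and at 1.44, 2.07 and 1.25 CPM in Antisense_hnRNPK. Its log2 fold change was 1.95 ± 0.40 (adjusted p = 6.6e-04, edgeR), and 1.28 with the trend removed. ZNF85 is among the 10 with a mean under the filter's level in Antisense_NC. It passed the filter only through Antisense_hnRNPK, where it was high. ZNF225 was at 0.689, 0.633 and 0.358 CPM in Antisense_NC and at 1.67, 2.50 and 1.64 CPM in Antisense_hnRNPK, a log2 fold change of 1.76 ± 0.34 (adjusted p = 4.4e-04, edgeR). With 7 counts in Antisense_NC replicate 3, under the filter's level, ZNF225 also passed only with the hnRNPK libraries. ZNF780A was at 0.646, 0.844 and 0.563 CPM and then at 1.63, 2.98 and 1.52 CPM, a log2 fold change of 1.57 ± 0.35 (adjusted p = 0.0013, edgeR). With the trend removed ZNF225 was still called, at 1.22, and ZNF780A was not, at 0.89 (adjusted p = 0.061, edgeR).

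The members that fell the most were GC-rich and more highly expressed. ZNF580 was at 24.8, 23.3 and 21.6 CPM in Antisense_NC and at 8.94, 9.07 and 9.86 CPM in Antisense_hnRNPK, a log2 fold change of -1.33 ± 0.11 (adjusted p = 2.8e-07, edgeR). ZNF574 was at 46.7, 41.6 and 47.9 CPM and then at 19.5, 16.7 and 21.2 CPM, a log2 fold change of -1.26 ± 0.10 (adjusted p = 2.4e-07, edgeR). ZNF358 was at 12.9, 13.8 and 14.9 CPM and then at 4.70, 6.71 and 6.23 CPM, a log2 fold change of -1.24 ± 0.15 (adjusted p = 6.6e-06, edgeR). With the trend removed the log2 fold changes of these 3 members were -0.68, -0.62 and -0.37, none of them called. ZNF580 shares 15.6% of its exonic bases with other genes.

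**Figure D3:**
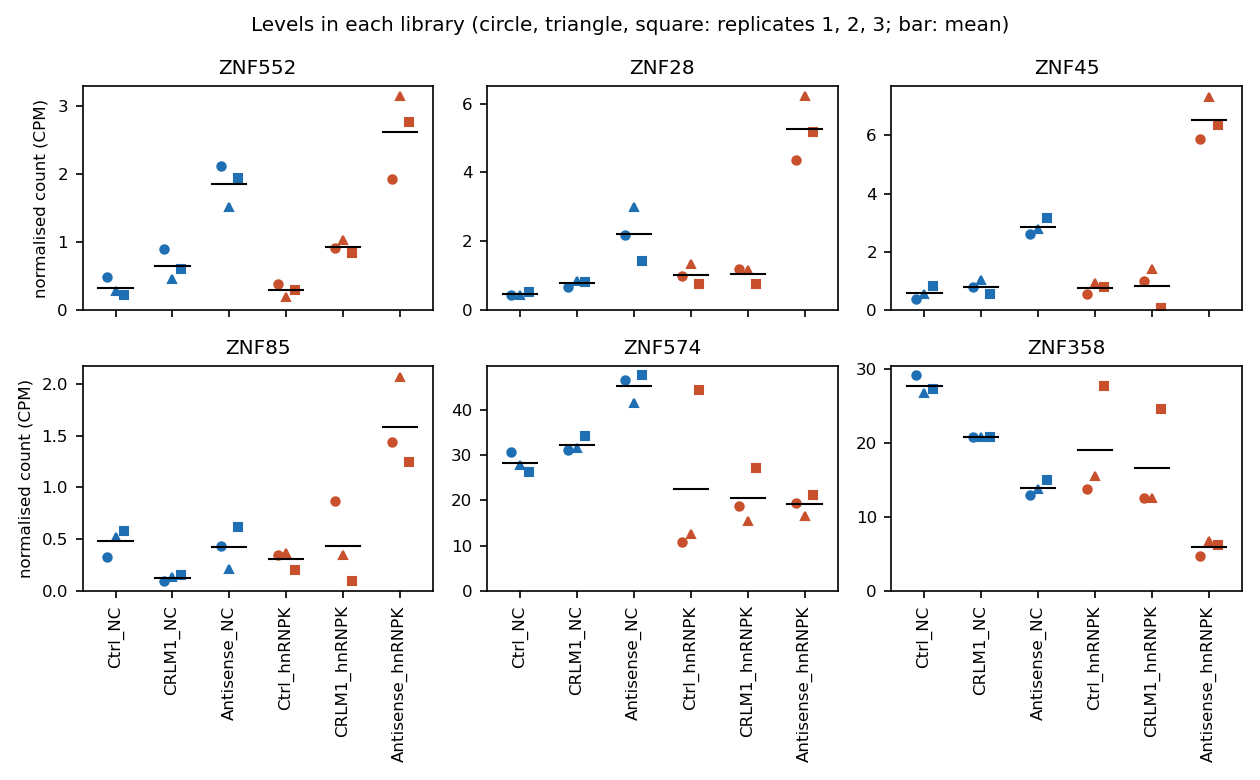
Normalised counts (CPM, y axis from 0) of 6 named members in each library of the 6 groups (x axis), NC groups in blue and hnRNPK groups in orange, with symbols for replicates 1 to 3 and a bar at the group mean. ZNF552, ZNF28 and ZNF45 are higher in Antisense_NC than in Ctrl_NC, ZNF85 is highest in Antisense_hnRNPK, and replicate 3 of Ctrl_hnRNPK lies above the other replicates for ZNF574 and ZNF358.

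Compared with other genes in the same contrast, the ZNF genes on other chromosomes gave 27 of 207 called higher and 8 lower, with a median log2 fold change of 0.48, which is 0.18 above the trend at their GC content, and the members lay 0.43 above it. The other protein-coding genes of chromosome 19 gave 5 of 794 called higher and 150 lower, with a median of -0.62, which is -0.08 from the trend. Within narrow ranges of GC content the members also lay above other genes: at 42 to 46% the median was 0.89 for 57 members and 0.39 for 2297 other genes, and at 46 to 50% it was 0.80 for 18 members and 0.08 for 1943 other genes. At 30 to 38% the medians were 0.78 for 9 members and 0.72 for 1025 other genes. No test of these differences between sets was made.

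Members at the ends of the GC range followed the same division. ZNF254, of 34.7% GC, and ZNF100, of 36.5%, had log2 fold changes of 0.78 and 0.81 in Antisense_hnRNPK against Antisense_NC, both under 2-fold, and of -0.09 and 0.03 with the trend removed. ZNF865, of 70.9%, and ZNF628, of 70.8%, had -1.02 and -0.77, and -0.01 and 0.22 with the trend removed. For these 4 genes little was left once the trend of GC content and length was taken out.

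Whether the hnRNPK effect differed between backgrounds was tested as an interaction. With all libraries, 0 of 153 members had a called difference between the Antisense and Ctrl backgrounds and 0 of 138 between the CRLM1 and Ctrl backgrounds by edgeR, with 0% of all genes called in each. At an unadjusted p under 0.05 there were 24 and 4 members, against 14.2% and 1.46% of all genes. Without replicate 3 of both hnRNPK groups, the first of these gave 2 members called higher and 1 lower, against 1.4% and 1.04% of all genes, which is a share of members near the background. The second gave 0, against 0.0129% in each direction. The 3 called members were ZNF85, with a log2 difference of 2.51 ± 0.70 (adjusted p = 0.016, edgeR), ZNF557 with 1.12 (adjusted p = 0.016) and ZNF585A with -1.52 (adjusted p = 0.027). In the empty control background ZNF85 was at 0.331, 0.520 and 0.580 CPM in Ctrl_NC and at 0.346, 0.364 and 0.202 CPM in Ctrl_hnRNPK. These values, like those in Antisense_NC, lie around the limit of the filter on low counts, and with all libraries and the filter ZNF85 was not called.

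The members lie in 15 position clusters, separated by more than 1 Mb, of which 7 hold 10 or more members and 189 in all. In Antisense_NC against Ctrl_NC, the cluster at 11.48 to 12.64 Mb had 8 of 11 tested members called higher and 0 lower, with a median log2 fold change of 1.49, and 7 called higher at a median of 1.33 with the GC and length trend removed. The cluster at 19.67 to 24.13 Mb, which has the lowest median GC content of the larger clusters at 38.2%, had 6 of 13 called higher and 1 lower. With the trend removed, 4 of its members were called higher. The cluster at 43.53 to 45.08 Mb had 5 of 14 called higher and 1 lower with a median of 0.06, and 4 called higher with the trend removed. Over all genes, 7.19% were called higher and 6.94% lower, and 6.05% higher with the trend removed. In Antisense_hnRNPK against Antisense_NC, the cluster at 51.57 to 53.50 Mb had 14 of 25 called higher and 0 lower with a median of 1.09, and 2 called higher with the trend removed. The cluster at 55.48 to 58.48 Mb, the largest with 55 members, had 8 of 42 called higher and 3 lower, and 6 called higher with the trend removed. Over all genes in this contrast, 7.28% were called higher and 6.1% lower, and 2.9% higher with the trend removed. Neighbouring members share sequence, and the clusters were not tested against each other.

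**Figure D4:**
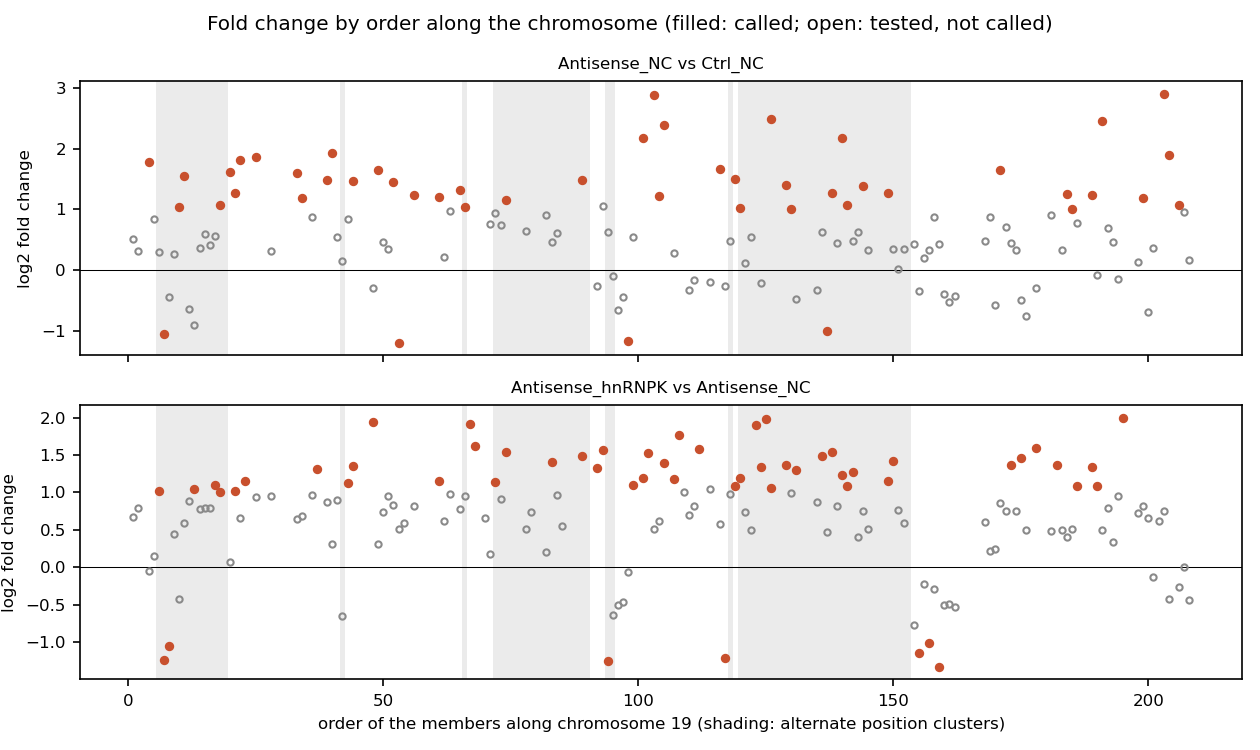
Log2 fold change (y axis) of the tested members by their order along chromosome 19 (x axis, 1 to 208) in Antisense_NC against Ctrl_NC (top) and Antisense_hnRNPK against Antisense_NC (bottom). Filled points passed the edgeR test at 2-fold, open points did not, and shading marks alternate position clusters, so that the called members can be seen to spread over most clusters.

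Of the members with known roles, ZNF274 and ZNF224 were each called in 1 of the 6 comparisons. ZNF274, which recruits SETDB1 to the 3′ ends of zinc finger genes themselves, was at 2.98, 1.36 and 2.10 CPM in Ctrl_NC and at 5.51, 5.11 and 4.20 CPM in Antisense_NC. The groups did not overlap, with a log2 fold change of 1.19 ± 0.22 (adjusted p = 1.3e-05, edgeR). In Antisense_hnRNPK it was at 6.67, 11.2 and 8.26 CPM, and its log2 fold change against Antisense_NC was 0.81, under 2-fold, and 1.08 and called with the GC and length trend removed (adjusted p = 9.2e-04, edgeR). ZNF224, a transcriptional repressor, was called higher in Antisense_hnRNPK at 1.18 (adjusted p = 2.9e-04, edgeR) but not with the trend removed, at 0.65. It shares 42.4% of its exonic bases with the antisense gene ZNF225-AS1.

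ZNF304, a repressor in colorectal cancer cells, and ZNF649 were not called in any of the 6 comparisons. Their log2 fold changes in Antisense_hnRNPK against Antisense_NC were 0.75 and 0.49. ZNF91, which represses retrotransposons of primates, was also not called, at 0.62 in this comparison and -0.05 with the trend removed, and was at 1.96 to 5.17 CPM over all libraries. ZNF93, which likewise represses retrotransposons, and ZNF382 were near 0 in every group, with group means of at most 0.0470 and 0.0316 CPM, and no fold change is given for them.

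Corepressors of KRAB zinc finger proteins and general heterochromatin factors were examined as a list of 24 genes, each tested in every comparison. None was called by edgeR in the first 5 comparisons at 2-fold with all libraries. In Antisense_hnRNPK against Antisense_NC, 2 were called higher and 2 lower, with a median log2 fold change of 0.18, beside 7.28% and 6.1% of all genes, so that the list was called about as often as other genes. After the GC and length trend was removed, 0 were called in either direction. TRIM28, a GC-rich gene at 62.5%, was at 679.2, 675.7 and 717.4 CPM in Antisense_NC and at 309.6, 283.8 and 327.0 CPM in Antisense_hnRNPK. It fell by 1.18 ± 0.08 on the log2 scale (adjusted p = 9.8e-08, edgeR) and by 0.46 with the trend removed (adjusted p = 0.0011), and it was at 354.6 and 309.3 CPM in Ctrl_hnRNPK replicates 1 and 2 but 733.2 CPM in replicate 3. EHMT2, a histone methyltransferase, fell by 1.03, and FAM208A, a subunit of the HUSH silencing complex, and SMARCAD1, a chromatin remodeller that binds TRIM28, rose by 1.56 and 1.06. SETDB1 was at 18.3, 21.8 and 19.8 CPM in Ctrl_NC and at 33.8, 30.5 and 32.5 CPM in Antisense_NC, a log2 fold change of 0.64 (adjusted p = 2.3e-08, edgeR) that did not reach 2-fold.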

How the data were processed

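RNA-seq libraries of 18 HCT116 cultures were compared, in 6 groups of 3 biological replicates. The authors aligned reads to GRCh38 with TopHat2, allowing 4 mismatches, and deposited raw read counts per gene of Gencode version 23, as well as FPKM values made by the authors from the same libraries, which were used to describe levels and in an alternative test. The deposited tables hold no other per-sample columns.

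The deposited counts were tested in edgeR 4.0.16 (R 4.3.3) with TMM scaling, the package's filter on low counts and the quasi-likelihood F-test, fitted over all genes for each pair of groups, and p-values were adjusted over all genes by Benjamini-Hochberg. A gene was called at an adjusted p of at most 0.05 and a change of at least 2-fold. Every library was kept, including replicate 3 of Ctrl_hnRNPK and of CRLM1_hnRNPK, which the study left out, and fits without them are given beside. Exonic GC content and length came from the union of exons in Gencode version 44 on GRCh38. The trend at a given GC content is a lowess curve (fraction 0.3) of the log2 fold change over genes that are not members. For fits with the GC and length trend removed, a loess curve (span 0.5) of each library's deviation on GC content and log2 length was entered as an offset. The library medians used log2(CPM + 0.5). The fits were run on simulated data whose changed genes had higher counts than most members. That run does not test the fits at low counts.

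Named members were the 3 highest and 3 lowest called log2 fold changes per comparison that did not overlap between groups and averaged 1 CPM or more, members with known roles, and the members of lowest and highest GC content. Of 9 members listed for a role, 7 were present and the others were not analysed here. The members and lists were chosen with earlier results of these data known. The deviations of libraries with the same replicate number correlated at -0.102 to 0.0589 over 15668 genes, so the numbers were not taken as pairs. Alternatives were DESeq2 1.42.0, limma 3.58.1 on log2(FPKM + 1) and log2(FPKM + 0.1), no filter, a replicate block, a single fit and each replicate left out.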

Additional observations from a re-analysis of the deposited data

How the results depend on the processing

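Most counts of called members stayed within 1.5 times their value under the alternatives. The share of all genes called is given above for only some of these settings. The other counts therefore do not show whether the members changed apart from other genes. On log2(FPKM + 1), which compresses low values, the counts were 0 for CRLM1_NC against Ctrl_NC, 0 for CRLM1_NC against Antisense_NC, 3 for Antisense_NC against Ctrl_NC and 3 for Antisense_hnRNPK against Antisense_NC, in place of 3, 23, 49 and 56. On log2(FPKM + 0.1) the first was 1 and the second 15, and a single fit of all libraries gave 15 for the second. With the GC and length trend removed, CRLM1_NC against Ctrl_NC gave 5 and Antisense_hnRNPK against Antisense_NC 17, and the latter gave 17 with a replicate block as well and 24 without replicate 3. With each replicate left out in turn, the counts were 4 to 7 for CRLM1_NC against Ctrl_NC (7 without Ctrl_NC replicate 1, 6 without Ctrl_NC replicate 2 or CRLM1_NC replicate 1, and 5 without replicate 3 of either), 19 to 26 for CRLM1_NC against Antisense_NC, 47 to 53 for Antisense_NC against Ctrl_NC and 45 to 61 for Antisense_hnRNPK against Antisense_NC. Ctrl_hnRNPK against Ctrl_NC went from 0 to 20 without its replicate 3, and to 2 with the trend removed too. CRLM1_hnRNPK against CRLM1_NC went from 0 to 16, and to 4. The difference of the hnRNPK effect between the Antisense and Ctrl backgrounds gave 2 calls with no filter on low counts, 0 to 1 with each replicate left out, 3 without replicate 3 of both hnRNPK groups and 3 with the trend removed as well. The fits without both replicates, and those without replicate 3 that also removed the trend, were chosen after seeing the data. The log2 fold change of ZNF865 in Antisense_hnRNPK against Antisense_NC was 0.017 with the trend removed and replicate 3 left out, in place of -1.02. The replicate numbers did not pair the samples, and with the replicate block the counts in the order of the report were 3, 23, 48, 0, 0 and 57, and 0 for both interactions. The causes of these changes were not tested. Most members had low counts, so that a 2-fold change was not detectable in many, and 57 to 82 members per comparison were not tested.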
